A study of Mus musculus with 13 samples.

Results

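The genes of the mouse immunoglobulin heavy-chain (Igh) locus were read in poly(A)-selected RNA-seq of bone marrow neutrophils, as traces of B and plasma cells in a neutrophil preparation. The members were taken by symbol: every gene whose name starts with Ighv, Ighd, Ighj, Ighm, Ighg, Igha or Ighe, without Ighmbp2, which shares letters with the locus and encodes a helicase. The rule gave 217 of 55450 gene IDs with a symbol: 185 variable (V), 20 diversity (D), 4 joining (J) and 8 constant entries. All 217 lay on chromosome 12 between 113256204 and 116009954 (RefSeq GRCm38.p6, which is mm10). The symbols Ighv5-8 and Ighv1-13 each stood under a pair of gene IDs, so 215 symbols were distinct.

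Neutrophils freshly isolated from the marrow of wild-type (WT) mice were either treated with extracellular RNase A (exRNaseA, n = 2 libraries) or mock-treated (mock, n = 2 libraries). RNase A is a secreted nuclease that cuts single-stranded RNA, and by the series title the comparison asked what its use outside the cells does to the cells' RNA. The labels of all 4 libraries, mock included, carry the same sentence on RNase A in HBSS for 10 min at 37 °C, so the groups rest on the treatment field. The sources used here give neither the age nor the strain of the mice. The series speaks of biological replicates, but nothing used here says that the libraries came from separate animals, so p-values cover only the spread among the 4 libraries. The exRNaseA libraries held 20661683 and 22870322 expected counts and the mock libraries 23722494 and 20798960. The 9 small RNA samples of the series were not used here.

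An antibody heavy chain is built in developing B cells, where the enzymes encoded by Rag1 and Rag2 join a V, a D and a J segment ahead of the constant gene Ighm. Ighm gives IgM, Ighd gives IgD by alternative splicing of the same long transcript, and class switching later replaces them with an IgG, IgE or IgA constant gene. Each B cell clone uses 1 rearranged V segment, while the constant gene is shared by all clones of a class. Neutrophils bind the products of the locus through Fc receptors.

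The preparation was led by neutrophil messages and held B-lineage RNA. S100a9, a calcium-binding protein of the neutrophil cytosol, stood at 124258 and 117292 TPM (a level scaled for gene length and library) in exRNaseA libraries and 124322 and 125568 in mock libraries. The 15 neutrophil markers summed to 288776 and 275686 TPM in exRNaseA libraries and 287583 and 288439 in mock libraries. Ighm stood at rank 52 and 54 among all genes by TPM in exRNaseA libraries and at rank 54 and 53 in mock libraries. In bulk RNA, fewer cells of a type and less RNA per cell cannot be told apart, so these levels say nothing of how many B cells were present.

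The locus took a similar share of the counts in both groups. Its members held 34630 and 38290 expected counts in exRNaseA libraries and 39717 and 34756 in mock libraries. This was 0.168% and 0.167% of all counts in exRNaseA libraries and 0.167% and 0.167% in mock libraries. In TPM the share was 0.289% and 0.288% in exRNaseA libraries and 0.278% and 0.277% in mock libraries. This was higher in exRNaseA without overlap (log2 ratio 0.06) and was not tested. Of the 217 members, 24 could not be measured. These were all 20 D and 4 J segments, whose annotated lengths of 10 to 54 bases left an effective length of 0 in the deposited tables, so they are listed at 0 in every library. Of the other 193 members, 133 had a count in at least 1 library (125 V genes and all 8 constant genes) and 60 V genes were at 0 in all 4.

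The constant genes were dominated by IgM. Ighm (ENSMUSG00000076617.9, 113418826 to 113422730) stood at 1402 and 1417 TPM in exRNaseA libraries and 1411 and 1415 TPM in mock libraries, from 27749 and 30551 counts in exRNaseA and 32218 and 28236 in mock libraries. The groups overlapped in TPM. CPM is counts scaled to library size, without the normalization factors (TMM) that the test also used. In CPM, Ighm stood at 1343 and 1336 in exRNaseA libraries and 1358 and 1358 in mock libraries, lower in exRNaseA without overlap. It made up 84.3% and 83.7% of the summed constant TPM in exRNaseA libraries and 85.3% and 85.1% in mock libraries, shares that did not overlap either. Ighd, the IgD gene next to it (113407535 to 113416324), stood at 73.5 and 82.8 TPM in exRNaseA libraries and 68.4 and 77.8 in mock libraries. As a percent of Ighm this was 5.24 and 5.84 in exRNaseA libraries and 4.85 and 5.50 in mock libraries, again with overlapping groups.

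Igha and the IgG genes, whose products are made after class switching, were present at lower levels. Igha (ENSMUSG00000095079.6, 113256204 to 113260236), the gene of mucosal IgA, stood at 111 and 115 TPM in exRNaseA libraries and 99.2 and 103 in mock libraries. Ighg1 (ENSMUSG00000076614.7, 113326541 to 113330523) stood at 32.6 and 34.0 TPM in exRNaseA libraries and 26.9 and 23.2 in mock libraries. For both genes the exRNaseA libraries lay above the mock libraries with no overlap. Ighg2b had 27.3 and 25.8 TPM in exRNaseA libraries and 31.4 and 24.1 in mock libraries. Ighg2c, the IgG gene that C57BL/6 mice carry in place of Ighg2a, had 11.6 and 12.2 TPM in exRNaseA libraries and 10.6 and 12.2 in mock libraries. Ighg3 had 5.08 and 5.93 TPM in exRNaseA libraries and 6.27 and 6.36 in mock libraries, lower in exRNaseA without overlap, in CPM too. Of the 7 constant genes tested, exRNaseA thus lay above mock without overlap in 2 (Igha and Ighg1, in TPM and CPM) and below it in 1 in TPM (Ighg3) and 2 in CPM (Ighg3 and Ighm). Of all genes tested, 23.1% lay above and 13.1% below without overlap in CPM, so such counts are common at this sample size. Ighe, the IgE gene, had 1 count in the second exRNaseA library and 0 in the other 3, too few to test.

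By mean TPM the order was Ighm, Igha, Ighd, Ighg1, Ighg2b, Ighg2c, Ighg3 and Ighe. Of neighbours in this order, Ighg1 and Ighg2b stood at 33.3 ± 0.969 and 26.6 ± 1.03 TPM in exRNaseA libraries and did not differ beyond their spread in mock libraries (25.0 ± 2.62 and 27.7 ± 5.15 TPM, SD, n = 2 each), while Igha and Ighd were apart in every library. Summed over the 4 IgG genes, the level was 76.6 and 77.9 TPM in exRNaseA libraries and 75.2 and 65.8 in mock libraries. The order of levels did not follow the order of the genes on the chromosome, which from the V side is Ighm, Ighd, Ighg3, Ighg1, Ighg2b, Ighg2c, Ighe and Igha.

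**Figure D1:**
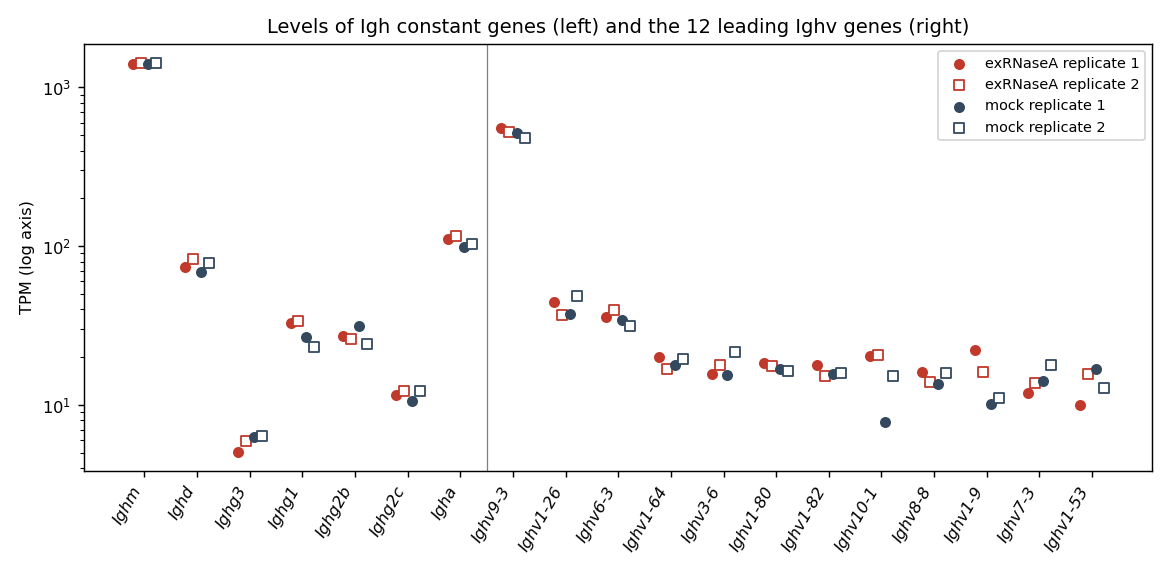
TPM (log axis) of the 7 constant genes with more than 1 count (left of the line) and of the 12 Ighv genes with the highest mean (right), 1 symbol per library, exRNaseA in red and mock in dark blue. Ighm stands between 1402 and 1417 TPM, Ighv9-3 between 482 and 558 TPM, and no other V gene shown reaches 50 TPM.

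The V genes were read from far fewer counts. They summed to 2965 and 3175 expected counts in exRNaseA libraries and 3151 and 2709 in mock libraries. The constant genes summed to 31665 and 35115 in exRNaseA libraries and 36566 and 32047 in mock libraries. Counts were found for 109 and 112 V genes in exRNaseA libraries and 108 and 106 in mock libraries, with 94 V genes counted in all 4. The median over the 125 V genes with a count was 2.79 TPM. A mean of 1 TPM was reached by 91 V genes and a mean of 10 TPM by 21.

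A single V gene held over 40% of all V counts. Ighv9-3 (ENSMUSG00000096459.1, 114140692 to 114141122) stood at 558 and 525 TPM in exRNaseA libraries and 513 and 482 TPM in mock libraries, from 1285 and 1339 counts in exRNaseA and 1373 and 1127 in mock libraries. Both exRNaseA values lay above both mock values by a margin that did not pass the test (log2 change 0.09, SE 0.05, edgeR adjusted p = 0.828). Its mean was 12.4 times that of the next V gene, Ighv1-26. It took 43.3% and 42.2% of the V counts in exRNaseA libraries and 43.6% and 41.6% in mock libraries. Its counts were whole numbers in all 4 libraries, within 0.005, so no fractional share of a read was seen there. The other 3 members of its family were low: Ighv9-4 averaged 7.89, Ighv9-1 3.98 and Ighv9-2 0.905 TPM over the 4 libraries, and they were named here after their values were seen. Effective lengths of V genes are short, 158 and 161 bases for Ighv9-3 in exRNaseA libraries and 159.5 and 159.6 in mock libraries, against 1361 to 1363 for Ighm, so each V count weighs more in TPM.

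Below Ighv9-3 the V genes formed a gradual series. Ighv1-26 had 44.4 and 36.8 TPM in exRNaseA libraries and 37.4 and 48.8 in mock libraries. Ighv6-3 had 35.9 and 39.6 TPM in exRNaseA libraries and 34.1 and 31.6 in mock libraries. The 9 V genes that follow (Ighv1-64, Ighv3-6, Ighv1-80, Ighv1-82, Ighv10-1, Ighv8-8, Ighv1-9, Ighv7-3 and Ighv1-53) had means between 13.8 and 18.5 TPM, and neighbours in this order overlapped over the 4 libraries. Reads are shared out between near-identical V genes by the estimation. Of the 133 members with a count, 23 had a count that was not whole in some library, Ighv1-26, Ighv8-8, Ighv1-52, Ighv11-2 and Ighv2-2 among the genes named here, and their values are less certain.

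The V genes fall into 16 families by sequence, numbered in their names. Ighv9 held 44.4% and 43.1% of the V counts in exRNaseA libraries and 44.5% and 42.4% in mock libraries, nearly all of it from Ighv9-3. Ighv1, the large J558 family with 93 members here, of which 64 had a count, held 29.3% and 28.9% in exRNaseA libraries and 30.7% and 31.7% in mock libraries. Ighv10 held 2.53% and 2.58% in exRNaseA libraries and 1.49% and 1.92% in mock libraries. Of the 15 families with a count, the exRNaseA shares lay above the mock shares without overlap in 6 (Ighv10, Ighv11, Ighv15, Ighv2, Ighv5 and Ighv8), below them in 2 (Ighv1 and Ighv4), and overlapped in 7. For single genes in CPM, 23.1% of all genes tested lay above and 13.1% below without overlap. Shares of a common total are not independent, and some rest on few counts. Ighv15 had 7 and 11 counts in exRNaseA libraries and 7 and 1 in mock libraries. No family share was tested. Ighv6 held 3.54% and 4.63% in exRNaseA libraries and 3.78% and 3.77% in mock libraries, Ighv5 and Ighv8 between 3.84% and 4.54% in each library, and each other family less than 3%. Ighv16 has 1 member and was at 0.

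**Figure D2:**
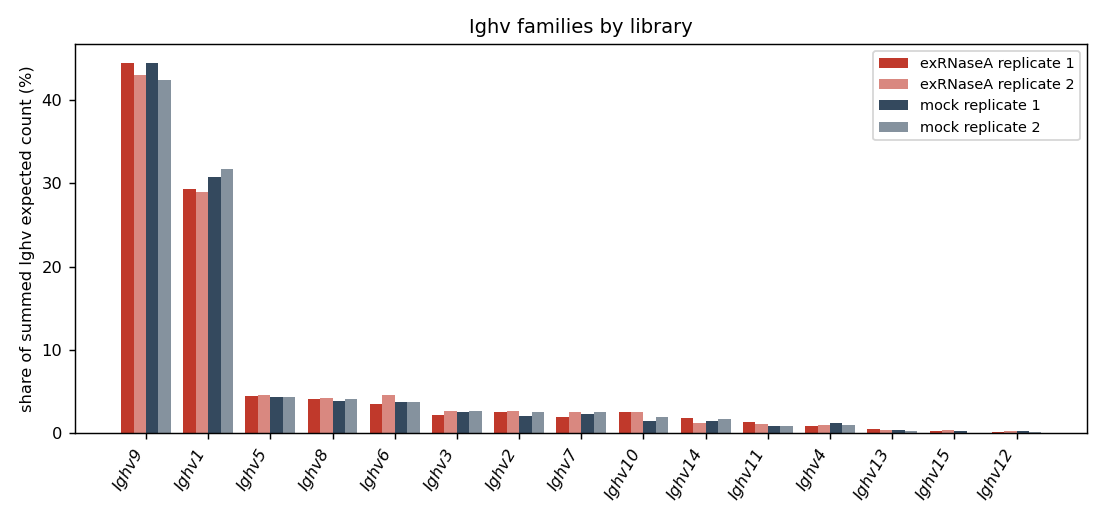
Share (%) of the summed Ighv expected count in each Ighv family with a count, as bars for exRNaseA replicates 1 and 2 and mock replicates 1 and 2. Ighv9 stands between 42.4% and 44.5% and Ighv1 between 28.9% and 31.7% in the 4 libraries, and no other family reaches 5%.

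The top gene of each smaller family gives its level. Ighv11-2 had 9.88 and 8.02 TPM in exRNaseA libraries and 5.74 and 5.56 in mock libraries. Ighv5-4 had 8.40 and 13.6 TPM in exRNaseA libraries and 9.30 and 5.92 in mock libraries. Ighv2-2 had 9.89 and 12.8 TPM in exRNaseA libraries and 10.4 and 7.65 in mock libraries. Of these 3, Ighv11-2 alone had groups that did not overlap. Ighv4-1, Ighv14-4 and Ighv13-2 averaged 8.14, 7.52 and 5.60 TPM over the 4 libraries, and Ighv15-2 and Ighv12-3 2.57 and 2.29 TPM. The last pair had too few counts to test.

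RefSeq calls 65 of the 185 V entries pseudogenes, segments that cannot give a working chain. Counts were found for 16 of these 65 and for 109 of the 120 entries called V segments. The pseudogenes held 3.54% and 4.53% of the summed V TPM in exRNaseA libraries and 4.25% and 4.49% in mock libraries. A mean of 5 TPM was reached by 4 pseudogenes and by 40 V segments. The 4 pseudogenes were Ighv7-3, Ighv7-1, Ighv8-10 and Ighv1-41, at means of 14.4, 10.5, 9.47 and 8.19 TPM. All but Ighv7-3 were named after their values were seen. Ighv7-3, from whole counts, had 11.9 and 13.7 TPM in exRNaseA libraries and 14.1 and 17.8 in mock libraries. The call is that of the reference genome, and other strains can differ.

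V genes with counts lay along the whole locus, which spreads its V segments over more than 2 Mb upstream of Ighm. Split into 3 equal stretches of 0.812 Mb, the stretch nearest Ighm (113572929 to 114385270) had counts in 42 of 68 V entries, the middle in 44 of 72 and the farthest in 39 of 45. RefSeq calls 26, 30 and 9 of these entries pseudogenes, in the same order, so the stretches differ in make-up. Whether this accounts for the shares with a count was not tested. The stretch nearest Ighm summed to 751 and 715 TPM in exRNaseA libraries and 687 and 658 in mock libraries. Most of that was Ighv9-3: without it the sums were 193 and 191 TPM in exRNaseA libraries and 173.6 and 176.3 in mock libraries. The middle stretch held 288 and 288 TPM in exRNaseA libraries and 265 and 265 in mock libraries. The farthest held 190.5 and 184.5 TPM in exRNaseA libraries and 172 and 182 in mock libraries. In all 3 stretches both exRNaseA sums lay above both mock sums in TPM, in the farthest by a narrow margin. These sums are parts of the same V total and were not tested. For single genes in CPM, 23.1% of all genes tested lay above without overlap. The median edgeR log2 change of the tested V genes was 0.27 in the nearest stretch, -0.007 in the middle and -0.005 in the farthest.

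**Figure D3:**
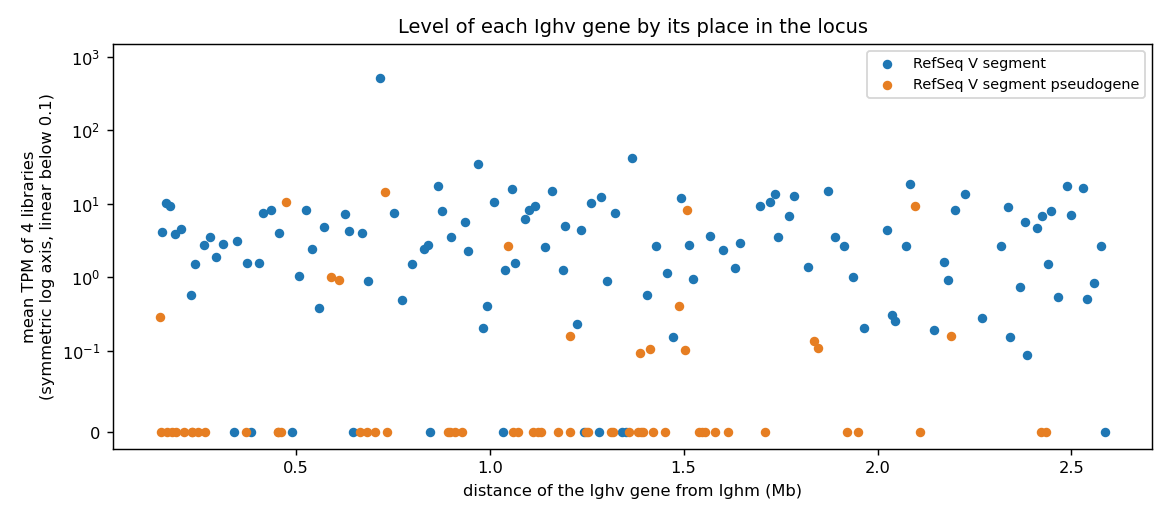
Mean TPM over the 4 libraries (symmetric log axis, linear under 0.1) of each Ighv gene against its distance from Ighm in Mb, with RefSeq V segments in blue and V segment pseudogenes in orange. Ighv9-3 is the point near 520 TPM, other V genes with counts spread along the whole axis, and most points at 0 are pseudogenes.

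Over all V genes the summed level was 1229 and 1188 TPM in exRNaseA libraries and 1124 and 1105 TPM in mock libraries (1209 ± 29.3 and 1115 ± 13.6, SD, n = 2), a log2 ratio of 0.12. Without Ighv9-3 it was 671 and 663 TPM in exRNaseA libraries and 611 and 623 in mock libraries, a log2 ratio of 0.11. The constant genes summed to 1663 and 1693 TPM in exRNaseA libraries and 1654 and 1662 in mock libraries, a log2 ratio of 0.02. V counts per constant count were 0.0936 and 0.0904 in exRNaseA libraries and 0.0862 and 0.0845 in mock libraries. In TPM the exRNaseA libraries lay above the mock libraries in these sums without overlap, but the direction of the constant sum turned with the scale, at a log2 ratio of -0.0067 in CPM. The V sum kept its direction in CPM, at 0.10. A sum over chosen members was given no p-value, and an exact two-sided permutation test of 2 against 2 libraries cannot go below p = 0.333. The median log2 change of all genes was 0.03 on the log2(TPM + 1) scale.

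The test of single genes called no member. After adjustment over 14184 genes (Benjamini-Hochberg), the quasi-likelihood test of edgeR called 0 of the 63 members with enough counts (56 V and 7 constant genes) at an adjusted p of 0.05, against 0.0917% of all genes tested (13 genes). At an unadjusted p under 0.05 edgeR had 4 members (Ighg1, Igha, Ighv10-1 and Ighv1-9), which is 4 of 63 against 6.35% of all genes. On the TPM scale, where a different filter left 102 members, limma called 0 and had 20 of the 102 at an unadjusted p under 0.05, on log2(TPM + 1) and on log2(TPM + 0.1) alike, against 6.27% and 6.16% of all genes. The median log2 change on these scales was 0.07 and 0.09 over the members and 0.03 and 0.03 over all genes. DESeq2 called 0 members (0.0564% of all genes) and had 1 of 63 at an unadjusted p under 0.05, against 1.06% of all genes. With 1 library left out a group has a single library, which is assumed to vary like the pair of the other group. In such fits edgeR also called 0 members without exRNaseA replicate 1, exRNaseA replicate 2, mock replicate 1 or mock replicate 2, where 0.397%, 0.197%, 0.501% and 0.0609% of all genes were called. The lowest edgeR adjusted p among members was 0.293. The log2 change was above 0 for 33 members and below 0 for 30 (52.4% above 0, against 49.9% of all genes). Its median was 0.03 over the members and -0.00 over all genes, with members between -0.53 and 0.94. Both exRNaseA libraries lay above both mock libraries in CPM for 20 of the 63 members, against 23.1% of all genes, and below them for 9, against 13.1%.

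Ighg1 came nearest to a call. Its CPM was 20.1 and 20.8 in exRNaseA libraries and 16.8 and 14.4 in mock libraries, from 416 and 475 whole counts in exRNaseA and 398 and 299 in mock libraries. The log2 change was 0.37 (SE 0.09, 95% interval 0.18 to 0.56, edgeR adjusted p = 0.293). With no filter on low counts edgeR's adjusted p was 0.0129, where 0.607% of all genes were called. With the replicate number as a block it was 0.0269, where 0.388% of all genes were called. The call thus depends on the fit. Over its 12 alternatives the log2 change ranged from 0.27 to 0.49 and the adjusted p of edgeR, limma or DESeq2 from 0.0129 to 1.00. Igha had a log2 change of 0.13 (SE 0.04, 95% interval 0.04 to 0.22, edgeR adjusted p = 0.628), with both exRNaseA libraries above both mock libraries.

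The other constant genes were closely bounded where counts were high. The log2 change of Ighm was -0.04 (SE 0.02, 95% interval -0.08 to 0.01, edgeR adjusted p = 0.806), and that of Ighd -0.00 (SE 0.05, interval -0.11 to 0.11, edgeR adjusted p = 0.995). Ighg2b had -0.09 (interval -0.32 to 0.14), Ighg2c 0.03 (-0.24 to 0.31) and Ighg3 -0.17 (-0.53 to 0.20). For the V genes the intervals were wider. The 95% interval lay within 1 log2 unit of 0 for 27 of the 63 members, against 85.3% of all genes tested. It lay within 2 units for 62 members.

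Among V genes, Ighv10-1 and Ighv1-9 had the smallest p upward and Ighv1-52 and Ighv1-55 downward. Ighv10-1 (ENSMUSG00000095981.1, 114479007 to 114479451) had 49 and 55 counts in exRNaseA libraries and 22 and 37 in mock libraries, or 20.3 and 20.6 TPM against 7.85 and 15.1 TPM. Its log2 change was 0.82 (SE 0.30, 95% interval 0.19 to 1.45, edgeR adjusted p = 0.686). Ighv1-9 (ENSMUSG00000094694.6, 114583569 to 114583862) had 51 and 41 counts in exRNaseA libraries and 27 and 26 in mock libraries, with a log2 change of 0.81 (SE 0.30, interval 0.18 to 1.44, edgeR adjusted p = 0.693). In both genes the groups did not overlap. Leaving out 1 library moved Ighv10-1 between 0.41 and 1.34, with mock replicate 1 the lowest library. Ighv1-52 had 7.52 and 9.80 TPM in exRNaseA libraries and 11.2 and 13.3 in mock libraries (log2 change -0.53, SE 0.35, edgeR adjusted p = 0.868). Ighv1-55 had 9.72 and 12.5 TPM in exRNaseA libraries and 12.2 and 16.7 in mock libraries (log2 change -0.39, SE 0.27, edgeR adjusted p = 0.878).

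**Figure D4:**
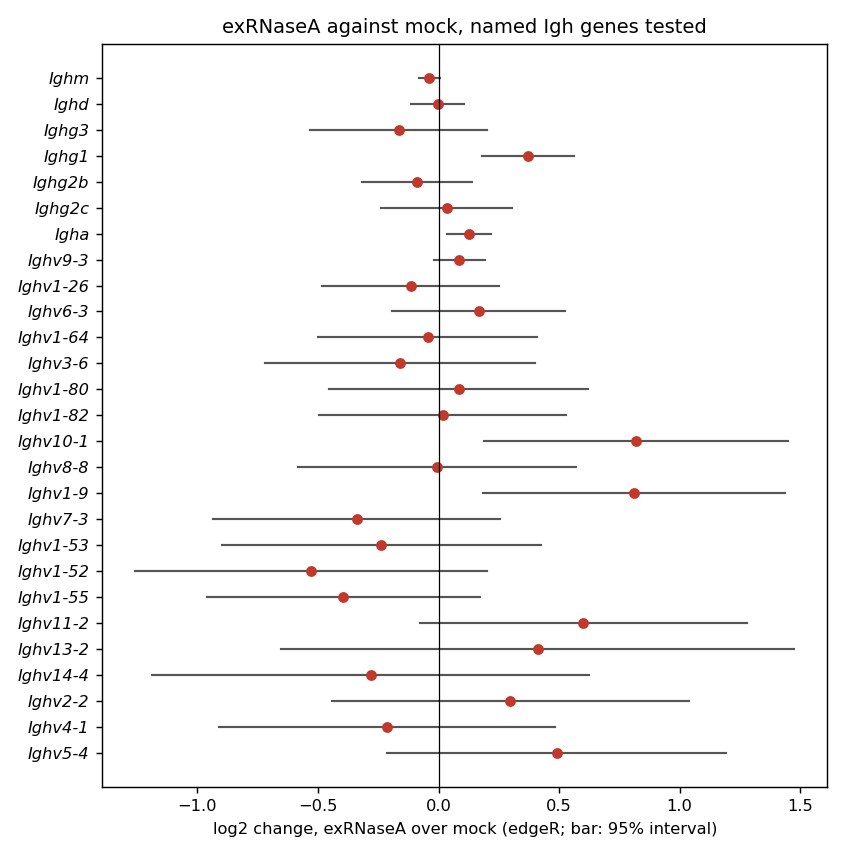
Log2 change, exRNaseA over mock, of each named Igh gene that was tested (edgeR), with its 95% interval as a bar. Ighm, Ighd, Igha and Ighv9-3 have the shortest bars, and the intervals of Ighg1, Igha, Ighv10-1 and Ighv1-9 lie above 0, although none passed after adjustment over 14184 genes.

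The observed spread of V counts between replicates was above that of counting error in both pairs, but the excess was not tested. For the 63 V genes with whole counts and at least 20 counts in all, the mean squared difference between libraries divided by the variance that counting gives was 1.28 for the exRNaseA pair and 1.57 for the mock pair. Between an exRNaseA and a mock library it was 1.61, 1.91, 1.29 and 1.41, so the ranges overlapped.

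The light chains, which pair with the heavy chain, gave a second reading of the same cells' RNA. Igkc, the kappa constant gene, stood at 1632 and 1762 TPM in exRNaseA libraries and 1681 and 1591 in mock libraries (log2 change 0.02, edgeR adjusted p = 0.958). Kappa made up 81.2% and 82.8% of the light-chain constant TPM in exRNaseA libraries and 82.1% and 81.9% in mock libraries, the rest being lambda. Heavy over light constant TPM was 0.827 and 0.795 in exRNaseA libraries and 0.808 and 0.855 in mock libraries. As with the heavy chain, a single V gene led: Igkv3-5 stood at 551 and 564 TPM in exRNaseA libraries and 520 and 505 in mock libraries, which was 38.1% and 40.1% of the summed Igkv TPM in exRNaseA libraries and 38.9% and 38.2% in mock libraries. Iglv1, the leading lambda V gene, had 192 and 167 TPM in exRNaseA libraries and 168 and 173 in mock libraries. Igkv genes summed to 1445 and 1405 TPM in exRNaseA libraries and 1336 and 1321 in mock libraries, a log2 ratio of 0.10.

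Of 178 light-chain genes 63 were tested and edgeR called 0, with 36 above 0 and 27 below (median log2 change 0.03). At an unadjusted p under 0.05 there were 5 of the 63, against 6.35% of all genes tested, the share that also applies to the lists below. Igkv5-48 had the smallest p, with 11.1 and 14.1 TPM in exRNaseA libraries and 5.32 and 2.44 in mock libraries (log2 change 1.64, SE 0.42, edgeR adjusted p = 0.360). With no filter on low counts edgeR called it (adjusted p = 0.0092), where 0.607% of all genes were called.

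Genes of the B cell receptor complex stood at moderate levels. Of 14 such genes edgeR called 0, with 5 above 0 and 9 below (median -0.01, 3 at an unadjusted p under 0.05). Cd79a, the signalling partner of membrane IgM, had 125 and 126 TPM in exRNaseA libraries and 132 and 124 in mock libraries. The kinases Syk and Lyn led the list and are also expressed by neutrophils. Syk had 276 and 289 TPM in exRNaseA libraries and 272 and 275 in mock libraries, and Lyn stood between 184 and 189 TPM in the 4 libraries. Fcrla, with the smallest p, had 53.1 and 54.5 TPM in exRNaseA libraries and 53.7 and 57.6 in mock libraries (log2 change -0.13, edgeR adjusted p = 0.729). Of 14 B-lineage transcription factors 0 were called, 8 above 0 and 6 below (median 0.01, 2 at an unadjusted p under 0.05). Ikzf1, Spib and Pou2af1 led this list and Irf4 had the smallest p. Pax5, the factor of B cell identity, had 40.9 and 41.8 TPM in exRNaseA libraries and 40.0 and 41.5 in mock libraries.

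Stage markers of B cells were read beside the locus. Of the 12 early B-lineage genes 11 were tested and 0 called (5 above 0, 6 below, median -0.01, 0 at an unadjusted p under 0.05). Rag1, of the recombinase, had 42.2 and 42.8 TPM in exRNaseA libraries and 41.3 and 42.4 in mock libraries. Its partner Rag2 was far lower, at 3.45 and 3.50 TPM in exRNaseA libraries and 3.24 and 3.04 in mock libraries. Vpreb3, made in B cell precursors, had 40.6 and 42.2 TPM in exRNaseA libraries and 38.2 and 39.8 in mock libraries. Igll1 and Vpreb1, the surrogate light chain of pre-B cells, lay between 1.08 and 2.49 TPM in the 4 libraries, and Myb and Sox4 completed the named genes of the list. Of 18 genes of recombination and class switching 0 were called (9 above 0, 9 below, median 0.01, 2 at an unadjusted p under 0.05). Hmgb1 and Hmgb2, abundant chromatin proteins, led this list. Ung, a uracil glycosylase used in class switching, had the smallest p, with 4.98 and 5.21 TPM in exRNaseA libraries and 3.72 and 4.79 in mock libraries (log2 change 0.45, SE 0.15, edgeR adjusted p = 0.628).

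The mature B cell list held 12 symbols, with Fcmr and its older name Faim3 among them, and 11 were found and tested. Of these 0 were called (5 above 0, 6 below, median -0.00, 1 at an unadjusted p under 0.05). Cd74, Cd37 and H2-Aa led. Ms4a1, the CD20 gene, had 51.5 and 49.8 TPM in exRNaseA libraries and 48.3 and 51.0 in mock libraries. Cd22, an inhibitory coreceptor with the smallest p, had 46.5 and 47.5 TPM in exRNaseA libraries and 40.0 and 47.0 in mock libraries. Of 15 plasma cell markers 14 were tested and 0 called (6 above 0, 8 below, median -0.02, 1 at an unadjusted p under 0.05). Jchain, which joins IgM and IgA units, had 110 and 107 TPM in exRNaseA libraries and 100 and 104 in mock libraries (log2 change 0.06, edgeR adjusted p = 0.878). Xbp1 stood between 51.8 and 52.8 TPM and Ell2 between 41.3 and 53.1 TPM in the 4 libraries. Lower in the same list were Sdc1 (CD138), between 2.63 and 3.40 TPM, Prdm1, between 1.32 and 1.65, and Tnfrsf17, between 0.20 and 0.33. They were named after their values were seen. The whole list summed to 319 and 328 TPM in exRNaseA libraries and 314 and 317 in mock libraries.

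**Figure D5:**
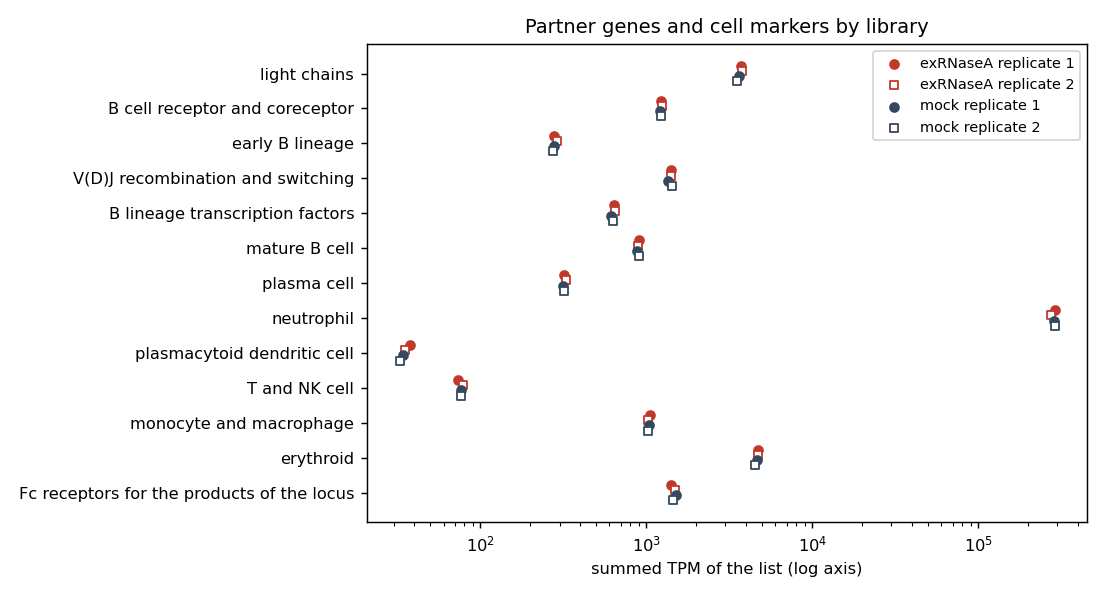
Summed TPM (log axis) of each gene list in the 4 libraries, exRNaseA in red and mock in dark blue. The 4 symbols of a list lie close together in every row, with light chains between 3507 and 3767 TPM, plasma cell markers between 314 and 328, T and NK cell markers between 73.3 and 78.2, and neutrophil markers between 275686 and 288776.

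Markers of other cells lay on both sides of the B-lineage lists. T and NK cell markers summed to 73.3 and 78.2 TPM in exRNaseA libraries and 76.6 and 76.9 in mock libraries, with 0 of 12 called (3 above 0, 9 below, median -0.13) and Trbc2, Trac, Nkg7 and Cd3g as the named genes. Plasmacytoid dendritic cell markers summed to 37.5 and 35.4 TPM in exRNaseA libraries and 34.1 and 32.7 in mock libraries, with 0 of 5 called, all 5 above 0 (median 0.13). Their defining gene Siglech had 2.60 and 2.89 TPM in exRNaseA libraries and 2.46 and 1.53 in mock libraries. Monocyte and macrophage markers (0 of 7 called, 4 above 0, 3 below, median 0.03) summed to 1045 and 1027 TPM in exRNaseA libraries and 1045 and 1030 in mock libraries, most of it Ly6c2. Erythroid markers (0 of 7 called, 4 above 0, 3 below, median 0.01) summed to 4695 and 4682 TPM in exRNaseA libraries and 4631 and 4489 in mock libraries. Neutrophil markers (0 of 15 called, 4 above 0, 11 below, median -0.05) had 10 genes at an unadjusted p under 0.05 in edgeR, against 6.35% of all genes. Without exRNaseA replicate 1, which leaves a lone library, S100a8, S100a9, Ltf and Retnlg had log2 changes of -0.10, -0.13, -0.07 and -0.08. Without exRNaseA replicate 2, S100a9 and Ngp stood at -0.04 and -0.07. With no filter on low counts edgeR called S100a8, S100a9 and Ngp, and with the replicate block S100a9, at changes between -0.05 and -0.08. In these 2 settings 0.607% and 0.388% of all genes were called. The part of these cells in the values of the locus was not tested.

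Fc receptors, which bind the products of the locus, were read as a further list. It is not confined to neutrophils, as Fcmr also stands among the mature B cell markers. Of 11 genes 9 were tested and edgeR called 0 (1 above 0, 8 below, median -0.09, 2 at an unadjusted p under 0.05). Fcer1g, the shared signalling chain, had 707 and 764 TPM in exRNaseA libraries and 798 and 757 in mock libraries (log2 change -0.11, edgeR adjusted p = 0.609). Fcgr3 and Fcgr4, IgG receptors of myeloid cells, stood between 491 and 504 TPM and between 103 and 104 TPM in the 4 libraries. Fcmr, the IgM receptor, had 28.2 and 29.9 TPM in exRNaseA libraries and 31.7 and 27.7 in mock libraries. Pigr, the epithelial carrier of IgA and IgM, had 3 and 8 counts in exRNaseA libraries and 11 and 41 in mock libraries (log2 change -2.23, SE 0.65, edgeR adjusted p = 0.473). Its mock mean rested on the second mock library. edgeR called Pigr with no filter on low counts (adjusted p = 0.00197) and with the replicate number as a block (0.022). In these settings 0.607% and 0.388% of all genes were called. Without mock replicate 1, which leaves a lone mock library, the log2 change of Pigr was -2.96.

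Of the genes that border the locus or lie inside it, edgeR tested Crip1, Tedc1, Zfp386 and Wdr60 and called 0 of these 4. On the constant side Crip1 had 29.5 and 28.3 TPM in exRNaseA libraries and 33.7 and 28.1 in mock libraries, Tedc1 between 2.70 and 3.01 TPM, and Tmem121 was at or near 0. Beyond the V genes, Zfp386 had 11.8 and 11.9 TPM in exRNaseA libraries and 10.8 and 10.6 in mock libraries, Wdr60 between 1.99 and 3.22 TPM, and Vipr2 at most 0.20 TPM. Inside the locus, Adam6a was listed at 0 and Adam6b reached at most 0.38 TPM. These levels stood far under that of Ighm, 1402 to 1417 TPM in the same libraries.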

How the data were processed

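Poly(A) RNA-seq of 2 exRNaseA and 2 mock libraries was used. Per the submitters' processing notes, the authors used STAR 2.4.2a with the genome build mm10 and RSEM 1.3.3, and the deposited expected counts are RSEM estimates that need not be whole. TPM and FPKM stand beside them in the deposited tables, per the file headers. The sources used here state no strand setting and no annotation release, so reads of overlapping genes cannot be told apart.

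Symbols came from the name table (86 gene IDs had none), and positions and segment types from RefSeq GRCm38.p6, matched by symbol. Before the fit, expected counts were rounded. edgeR 4.0.16 (filterByExpr, TMM factors 0.993 to 1.01, quasi-likelihood F test) compared exRNaseA with mock over all genes, with Benjamini-Hochberg adjustment at 0.05. Standard errors and 95% intervals came from its F values, or from limma-voom where F was near 0 (5 members). Sums and shares of TPM or expected counts were given per library. At these depths (20661683 to 23722494 expected counts per library) a V gene often had under 50 counts, and a member's interval shows the precision.

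The members and the 13 gene lists were chosen with earlier results of these data known, and lists share some genes. The text names each constant gene, the 12 V genes with the highest mean TPM, 2 V genes per direction with the smallest p, the top V gene of each family, in each other list the 3 highest genes and the one with the smallest p, and 3 protein-coding genes on each side of the locus. Pax5, Rag2, Igll1, Vpreb1, Ms4a1, Sdc1, Prdm1, Tnfrsf17, Siglech and Fcmr were added after their values were seen. Some genes of the lists are not reported here.

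Alternatives were DESeq2 1.42.0, total count scaling, no filter, 10 CPM in 2 libraries, limma 3.58.1 on log2(TPM + 1) and log2(TPM + 0.1), a block on the replicate number, leaving out each library in turn and a threshold of 0.1. For sums and shares they were whole counts only, CPM, FPKM and, chosen after seeing the data, sums without Ighv9-3. The fit was tested on simulated data.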

Additional observations from a re-analysis of the deposited data

How the results depend on the processing

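The count of called members was 0 in the main setting and in 10 of the 12 others, each library left out included. It was 1 (Ighg1, log2 change 0.37) with no filter on low counts and 1 (Ighg1, log2 change 0.37) with the replicate number as a block. Same-numbered libraries had a correlation of -0.0019 in their deviations from the group means. With 2 libraries per group this cannot show whether the samples were paired. The block moved the calls over all genes to 55, against 13 without it. Over all genes 149 were called with no filter and 9 to 74 with 1 library left out. The B cell receptor, light-chain, recombination and plasma cell lists held 0 called genes except with no filter, where 1 (Igkv5-48) was called.

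Directions of small changes turned with the scale. Under total count scaling, limma on log2(TPM + 1) and limma on log2(TPM + 0.1), Ighd had log2 changes of 0.015, 0.095 and 0.096 and Ighv8-8 0.013, 0.029 and 0.031. With each library left out in turn, the log2 changes crossed 0: Ighd -0.089 to 0.073, Ighg2b -0.26 to 0.13, Ighg2c -0.062 to 0.13, Ighv1-26 -0.30 to 0.079, Ighv1-64 -0.17 to 0.076, Ighv3-6 -0.39 to 0.085, Ighv1-82 -0.12 to 0.15, Ighv8-8 -0.12 to 0.11, Ighv1-53 -0.60 to 0.043 and Ighv14-4 -0.65 to 0.26. The summed constant level had a log2 ratio of -0.0067 as CPM and 0.0018 as FPKM, against 0.018 in TPM. The cause was not tested.

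Family shares, as exRNaseA minus mock in percentage points, moved by more than the spread between replicates in these cases. With only whole counts Ighv1 was at -1.35, against -2.09 in the main setting, and no Ighv11 member was left. As shares of TPM, Ighv5 was at 0.065 and Ighv11 at 0.20. Without Ighv9-3, which shrinks the total, Ighv1 was at -3.48, Ighv5 0.30, Ighv8 0.31, Ighv2 0.57, Ighv10 1.50, Ighv11 0.60 and Ighv15 0.28. Of the log2 changes of single named genes, 94 of those with 1 library left out kept their direction and side of the threshold, as did 187 under the other settings. The 95% interval lay within 1 log2 unit of 0 for 20 of 56 V genes and 7 of 7 constant genes tested. Low counts and 2 libraries per group both limit these intervals, and their parts were not told apart.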
